A study of Homo sapiens with 6 samples.

Results

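The genes described here encode the subunits of the oxidative phosphorylation complexes. They were chosen by symbol alone, as every gene on the array whose symbol begins like those of the nuclear NDUF, SDH, UQCR, COX and ATP5 subunits, with no measured value in the rule. The rule found 84 genes, represented by 113 probes, among 20046 genes with 1 symbol. SDHB of complex II and UQCRFS1 of complex III were not among the 84. A gene was tested if at least 1 of its probes had a detection p-value under 0.05 on 3 or more of the 6 arrays, and its brightest such probe was then used. This left 75 genes, of which 71 were detected on all 6 arrays. By complex, 33 of 35 genes of complex I, 3 of 3 of complex II, 7 of 7 of complex III, 10 of 16 of complex IV and 17 of 17 of complex V were tested, with 5 further genes that share the symbols but encode a copy, an inhibitor or an assembly protein.

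Oxidative phosphorylation takes place in the inner mitochondrial membrane. Complexes I and II pass electrons from NADH and succinate to ubiquinone, complex III passes them on to cytochrome c, and complex IV passes them to oxygen, while complexes I, III and IV pump protons that complex V, the ATP synthase, uses to make ATP. Most subunits are encoded in the nucleus, and a core of complexes I, III, IV and V is encoded by mitochondrial DNA. No mitochondrially encoded subunit is among the genes described here.

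A549 cells, a human lung adenocarcinoma line, had been transfected with pcDNA-NME2-MYC, a plasmid for a tagged NME2, or with pcDNA-MYC as the control, and RNA was taken 48 h later. NME2, an enzyme that transfers phosphate between nucleotides, also acts at DNA, and the profiling asked how expression differs after its induction. Each group held 3 arrays, described as biological replicates, all from the 1 parent line at 1 time point, and no untransfected cells entered the comparison. The share of cells that took up the plasmid is not given in the sources used here, and in bulk RNA a change in some cells cannot be told apart from a smaller one in all cells.

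The arrays carried between 19043 and 20726 detected probes each. On the first principal component, which held 32.6% of the variance, the control arrays lay between -11.2 and -8.44 and the arrays labelled induced between 5.62 and 16.4, with replicate 3 of the latter farthest out. Probes at the NME2 locus did not settle the labels. Among 3 detected probes annotated to NME2, the log2 fold change was 1.04 for the first, 0.26 for the second and -0.59 for the third, while 2 probes annotated to the NME1-NME2 readthrough gave -1.99 and -1.89. Every direction below therefore rests on the labels, as the mean of arrays labelled induced minus the mean of control arrays on the log2 scale. Of 8 epithelial or A549 marker genes, 6 were detected, with log2 fold changes of 0.02 for KRT8, 0.40 for CDH1, 0.05 for EPCAM, -0.23 for KRT19, -0.12 for ALDH1A1 and -0.04 for AKR1B10, the largest of them with an adjusted p of 0.173. KRT18, detected on 1 array, and AKR1C1, detected on 0, were not tested. Of 9 named markers of blood, endothelial, fibroblast or differentiated lung cells 2 were detected, CD14 at 0.23 and COL1A2 at 0.05. COL1A2 was detected on 3 arrays, with mean log2 signals of 4.89 on control arrays and 4.94 on the others, close to the background. None of the markers tested passed the threshold.

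Some of the promoters of these genes hold short sequence motifs that the choice by symbol did not use. NRF1 and the ETS factor GABP are known regulators of nuclear genes for respiratory subunits, and YY1 is another. RefSeq promoters, from 250 bases before to 50 after the start of each gene on GRCh38.p14, matched 68 of the 84 genes. The NRF1 motif (GCGCA, any base, then GCGC) was present on either strand in 16 of them, 23.5% against 6.28% of all 27305 promoters. The ETS motif CCGGAAG was present in 19, 27.9% against 10.7%, and the YY1 motif AAGATGGC in 10, 14.7% against 3.03%. At least 1 of the NRF1 and ETS motifs was found in 32, 47.1% against 15.7%, and both in 3, which were ATP5ME, SDHD and UQCR11. Motifs of different factors overlapped in 0 of the promoters matched. These are counts of letters, not of bound sites. The 27305 promoters were not limited to protein-coding genes, and they were not matched to these genes in base composition.

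The promoters of 4 genes are shown because these genes return below, as the last 200 bases before the start in the 5′ to 3′ direction of the gene, with NRF1 and ETS motifs of either strand in capitals. NDUFA12 (chr12:95003698-95003897, minus strand) holds an NRF1 motif 116 bases before the start. COX6A1 (chr12:120437913-120438112, plus strand) holds an ETS motif 16 bases before it. SDHD (chr11:112086673-112086872, plus strand) holds an NRF1 motif at 110 and an ETS motif at 77 bases before the start. UQCR11 (chr19:1605463-1605662, minus strand) holds 4 such motifs.
NDUFA12: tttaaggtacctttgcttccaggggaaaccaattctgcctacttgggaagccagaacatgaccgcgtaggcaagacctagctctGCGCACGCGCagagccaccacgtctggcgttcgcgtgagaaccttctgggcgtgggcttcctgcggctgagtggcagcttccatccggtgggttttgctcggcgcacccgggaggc
COX6A1: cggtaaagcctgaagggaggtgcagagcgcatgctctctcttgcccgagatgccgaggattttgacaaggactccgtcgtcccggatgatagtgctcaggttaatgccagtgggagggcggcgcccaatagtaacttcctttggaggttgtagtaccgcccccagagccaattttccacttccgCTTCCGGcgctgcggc
SDHD: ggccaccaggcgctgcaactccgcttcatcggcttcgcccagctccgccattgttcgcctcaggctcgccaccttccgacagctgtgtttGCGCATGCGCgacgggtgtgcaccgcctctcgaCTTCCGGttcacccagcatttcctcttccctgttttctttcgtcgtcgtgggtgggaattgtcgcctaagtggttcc
UQCR11: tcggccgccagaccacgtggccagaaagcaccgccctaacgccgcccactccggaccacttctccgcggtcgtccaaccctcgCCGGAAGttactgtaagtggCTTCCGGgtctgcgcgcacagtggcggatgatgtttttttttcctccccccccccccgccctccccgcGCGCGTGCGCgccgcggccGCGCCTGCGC

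No subunit gene passed the threshold of 0.05 for limma's adjusted p, in either direction. Over all 11358 genes tested, 0.158% passed as higher and 0.088% as lower on the arrays labelled induced. At an unadjusted p under 0.05, 6 of the 75 were higher (8% against 7.3% of all genes) and 3 lower (4% against 7.17%). The 9 genes together made 12% of those tested, beside 14.5% of all genes, so the share of such genes was no larger here than across the array. The smallest adjusted p of any of the 75 was 0.107, for NDUFV2, where it belongs to a log2 fold change of -0.42.

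The differences were small and lay more often on one side. The log2 fold change was above 0 for 53 of 75 genes and below 0 for 22, that is 70.7% above 0 where 50.3% of all genes were. Their median was 0.05, beside 0.00 for all genes tested, and their range ran from -0.42 to 0.39. For 65 of the 75 the whole 95% interval stayed within 0.5 of 0 on the log2 scale, a 1.41-fold difference in either direction. The same held for 8343 of all 11358 genes. The size of the log2 fold change was under 0.25 for 68 of the 75 and for 9440 of all genes. In 16 genes all 3 arrays labelled induced lay above all 3 control arrays, 21.3% against 11.3% of all genes, and in 4 they lay below, 5.33% against 10.7%. Subunits of a complex are known to vary together, so the genes are not independent counts, and no test was made over them as a group.

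**Figure D1:**
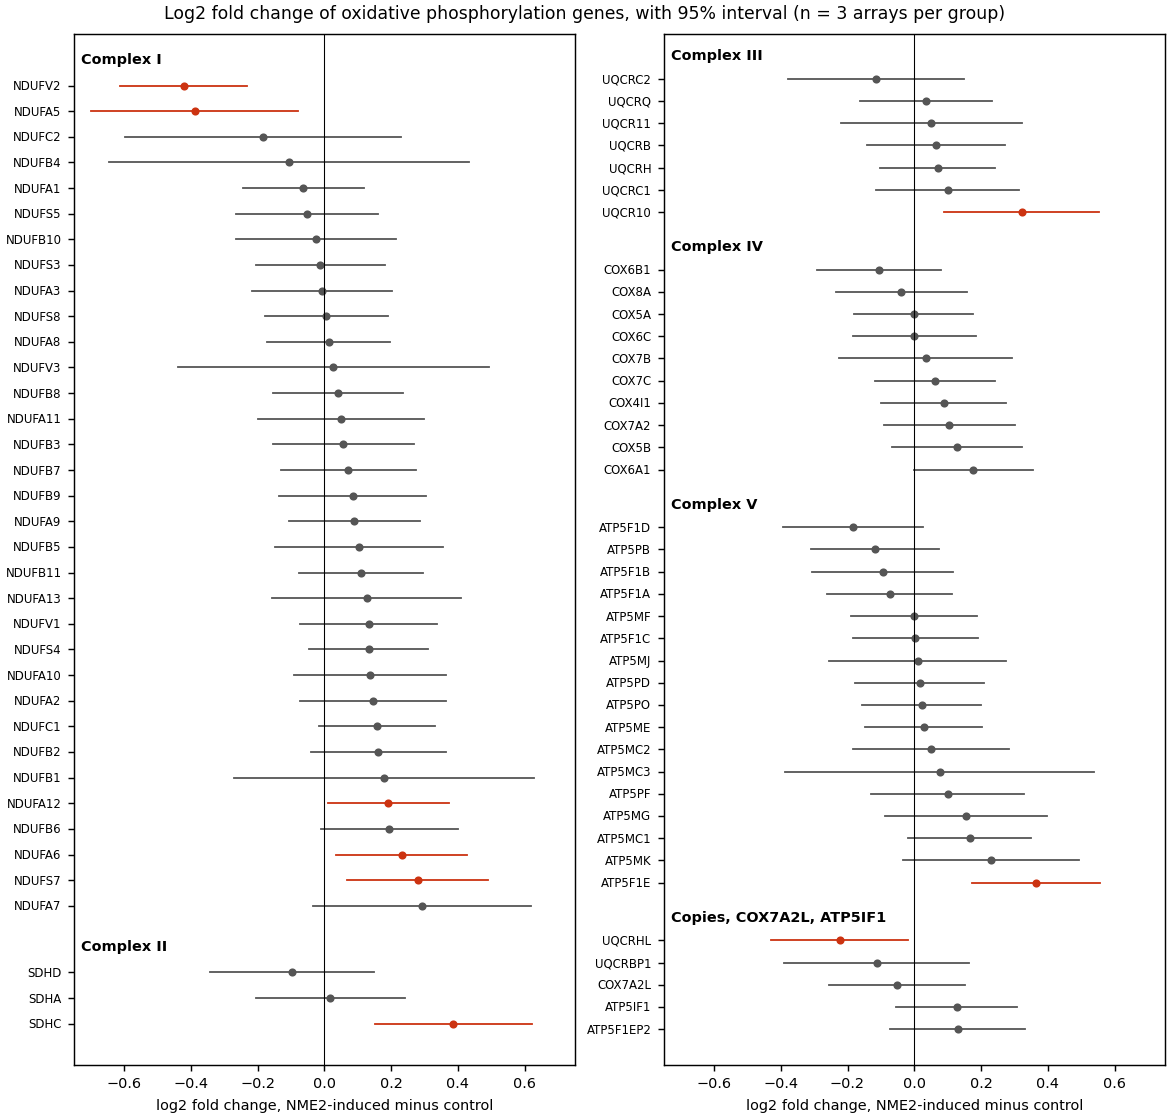
Log2 fold change of each tested gene, arrays labelled NME2-induced minus control, with its 95% interval from limma (3 arrays per group), sorted within each complex; red marks an unadjusted p under 0.05. Most points lie between -0.25 and 0.25, and the intervals of NDUFV2, ATP5F1E and SDHC lie farthest from 0.

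The same lean was seen array by array. When each gene was set against its mean over the control arrays, the median over the 75 genes was -0.01, 0.02 and -0.0047 on control arrays 1 to 3, and 0.04, 0.07 and 0.06 on the arrays labelled induced. The control medians lie near 0 because they were the reference. The 3 arrays labelled induced all lay above them, while the median over all 11358 genes stayed between -0.0041 and 0.01 on every array. Complexes I, III, IV and V each showed this separation of the arrays, with means of 0.09, 0.08, 0.06 and 0.03 over the arrays labelled induced. Complex II, with 3 genes, did not, since its medians ran from -0.06 to 0.04 on the control arrays and from -0.02 to 0.16 on the others. The gap was narrow for complex IV, from 0.013 on control array 1 to 0.017 on array 1 of those labelled induced. For complex V it ran from 0.0069 on control array 2 to 0.015 on array 1 of those labelled induced. Whether the complexes differ from one another was not tested.

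**Figure D2:**
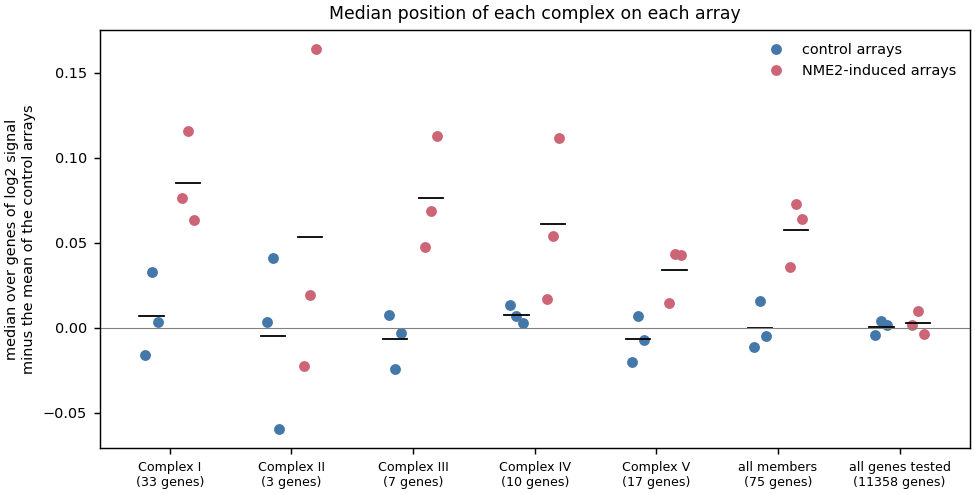
Median over the genes of each complex of log2 signal minus the gene's mean over the control arrays, 1 point per array, with a bar at the mean of each group of 3 arrays. The arrays labelled NME2-induced lie above the control arrays for all complexes but II, at 0.01 to 0.12, while the medians of all genes tested stay near 0. The gap between the groups is narrow for complexes IV and V.

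Complex I, the NADH dehydrogenase, oxidises NADH through a flavin and a chain of iron-sulfur clusters in its matrix arm. Of its 33 tested genes 24 had a log2 fold change above 0 and 9 below, with a median of 0.08. At an unadjusted p under 0.05, 3 were higher and 2 lower, together 15.2% of those tested beside 14.5% of all genes. The 5 core subunits tested had a median of 0.01 and the 28 accessory subunits, which surround the catalytic core, a median of 0.09.

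Among the core subunits, NDUFV2, an iron-sulfur subunit of the NADH-binding end, encoded on chromosome 18, had a log2 signal of 10.53, 10.57 and 10.55 on the control arrays and 10.12, 10.04 and 10.22 on the arrays labelled induced. The groups did not overlap, and the gap between them, from 10.22 to 10.53, was wider than the spread within either. The log2 fold change was -0.42 (SE 0.08), a 1.34-fold lower signal with a 95% interval from -0.61 to -0.23 and an adjusted p of 0.107. With limma's trend and robust options, which raised the calls over all genes from 28 to 300, the adjusted p of NDUFV2 was 0.000579, and over all 17 alternatives it ranged up to 0.281 and was under the threshold in 3. NDUFV1, its partner that binds NADH and the flavin, had 9.43, 9.39 and 9.55 on the control arrays and 9.49, 9.67 and 9.60 on the others, and the groups overlapped at a log2 fold change of 0.13 (SE 0.09).

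Farther along the chain, NDUFS7 carries the last iron-sulfur cluster before ubiquinone. Its log2 signal was 8.26, 8.15 and 8.39 on the control arrays and 8.53, 8.49 and 8.62 on the arrays labelled induced, again without overlap. The log2 fold change was 0.28 (SE 0.09), opposite in sign to that of NDUFV2, with an adjusted p of 0.248. NDUFS3, which belongs to the ubiquinone-binding part, and NDUFS8, which carries iron-sulfur clusters there, had log2 fold changes of -0.01 (SE 0.08) and 0.01 (SE 0.08), with overlapping arrays. NDUFS1, the largest core subunit, was detected on 1 control array and 1 array labelled induced and was not tested.

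Among the accessory subunits, NDUFA5 in the matrix arm had the lowest fold change. Its log2 signal was 5.13, 5.54 and 5.59 on the control arrays and 5.08, 4.94 and 5.07 on the arrays labelled induced. Control replicate 1 lay within 0.05 of the highest of the others, so the separation rested on a narrow gap. The log2 fold change was -0.39 (SE 0.13), with an adjusted p of 0.265. Over the 17 alternatives it ran from -0.68 to -0.17. The first came with no further background correction and a floor of 1, the second with normexp at an offset of 50. With neqc at an offset of 50 it was -0.21. The unadjusted p was under 0.05 in 12 alternatives, of which 3 were among the 6 that left out an array.

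NDUFA6, an LYR-motif protein that binds the mitochondrial acyl carrier protein, had 8.08, 8.0 and 7.94 on the control arrays and 8.15, 8.30 and 8.25 on the arrays labelled induced. The groups did not overlap, at a log2 fold change of 0.23 (SE 0.08) and an adjusted p of 0.292. NDUFA12, whose promoter is printed above, had 11.10, 11.14 and 11.09 against 11.30, 11.37 and 11.24. The control arrays lay close together and below all others, at a log2 fold change of 0.19 (SE 0.08) and an adjusted p of 0.324. NDUFB6, NDUFC1, NDUFS4 and NDUFB11 were also higher on every array labelled induced, with log2 fold changes of 0.19, 0.16, 0.13 and 0.11, and the highest fold change of the complex, 0.29 for NDUFA7, came with overlapping arrays and an SE of 0.14. NDUFC2, NDUFB1 and NDUFB4 were detected on only 4, 5 and 3 of the 6 arrays, and their intervals were among the widest. NDUFS6, an accessory subunit of the matrix arm, was detected on none.

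**Figure D3:**
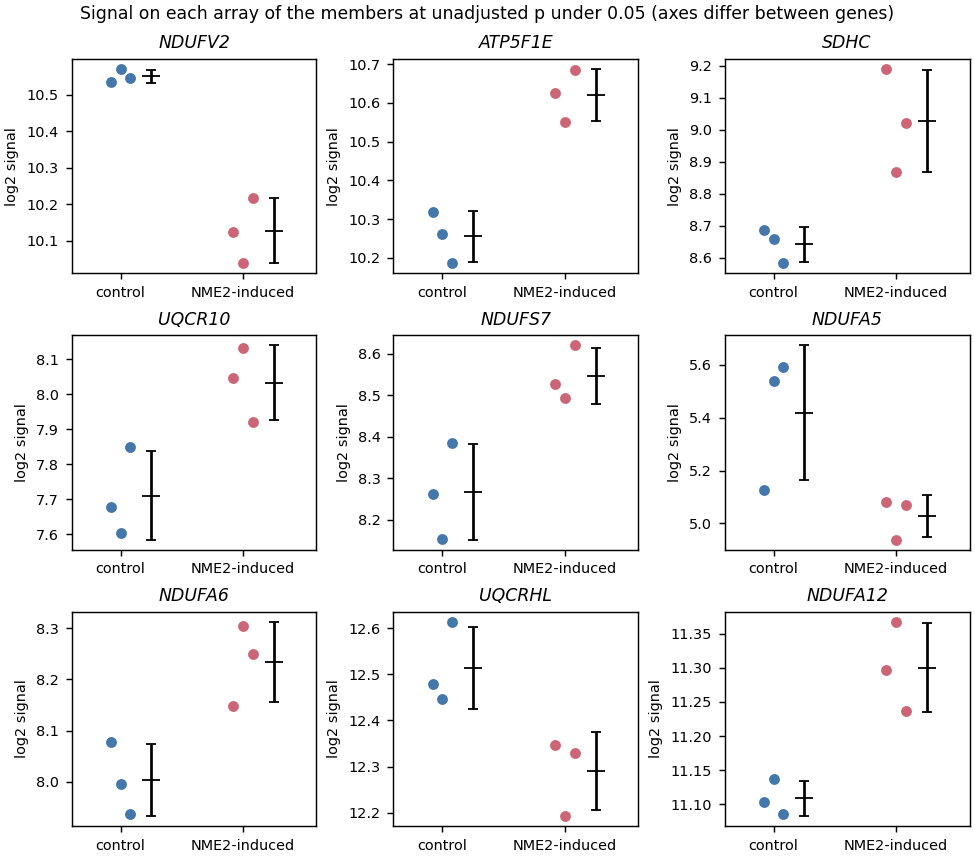
Log2 signal on each array for the 9 genes with an unadjusted p under 0.05, with bars at the mean ± SD of 3 arrays per group; the axes differ between genes and do not start at 0. In all 9 the arrays labelled NME2-induced lie apart from the control arrays, by a wide gap for NDUFV2 and ATP5F1E and a narrow one for NDUFA5 and UQCR10.

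Complex II, succinate dehydrogenase, links the citric acid cycle to the respiratory chain and pumps no protons. SDHC and SDHD anchor it in the membrane and SDHA carries the flavin. SDHC, on chromosome 1, had a log2 signal of 8.69, 8.66 and 8.58 on the control arrays and 9.19, 8.87 and 9.02 on the arrays labelled induced. Its log2 fold change of 0.39 (SE 0.10) was the highest of all the genes described here, with an adjusted p of 0.183. A second SDHC probe gave only 0.08 (SE 0.10). The adjusted p of the first probe was under the threshold in 1 of 17 alternatives, the trend and robust options that called 300 genes in all, at 0.0139, and ranged up to 0.387.

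SDHD, the other anchor, had 8.81, 8.93 and 8.74 on the control arrays and 8.80, 8.84 and 8.54 on the others. Its groups overlapped at a log2 fold change of -0.10 (SE 0.11), beside 0.39 for SDHC, and whether these fold changes differ was not tested. SDHA had 9.35, 9.39 and 9.30 against 9.22, 9.37 and 9.51, and a log2 fold change of 0.02 (SE 0.10). The arrays labelled induced spread on both sides of the control arrays for SDHA, while a second probe of the gene gave 0.28 (SE 0.12).

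Complex III, the cytochrome bc1 complex, had 6 of 7 tested genes above 0 and a median of 0.07. UQCR10, a small subunit near cytochrome c1, had a log2 signal of 7.68, 7.60 and 7.85 on the control arrays and 8.05, 8.13 and 7.92 on the arrays labelled induced. The closest arrays were 7.85 and 7.92, so the groups were barely apart at a log2 fold change of 0.32 (SE 0.10) and an adjusted p of 0.230. Its other 2 probes gave 0.03 (SE 0.10) and 0.15 (SE 0.10). The structural core proteins UQCRC1 and UQCRC2 had 0.10 (SE 0.09) and -0.11 (SE 0.11), both with overlapping arrays.

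UQCRH, the hinge protein between cytochromes c1 and c, had 12.20, 12.17 and 12.20 against 12.30, 12.23 and 12.25. The groups did not overlap, yet the log2 fold change was only 0.07 (SE 0.07). UQCR11, whose promoter holds the most NRF1 and ETS motifs among those printed, had a log2 fold change of 0.05 (SE 0.12), and UQCRQ and UQCRB, both small subunits, had 0.04 (SE 0.09) and 0.07 (SE 0.09). Further UQCRB probes, given below, lay below 0. CYC1, the cytochrome c1 subunit, whose symbol lies outside the rule, had 0.00 (SE 0.09).

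Complex IV, cytochrome c oxidase, has subunits that exist in a general form and in a second form restricted to some tissues. In A549 cells the probes of the general and of the restricted forms differed in detection. The general forms COX4I1, COX6A1, COX6B1, COX7A2, COX7B and COX8A were detected on all 6 arrays. Their counterparts COX4I2, COX6A2, COX6B2, COX7A1, COX7B2 and COX8C, known from lung, heart and muscle or testis, were detected on none, in either group. COX6B2 had 2 probes and each of the other restricted forms 1. A probe below detection gives only a bound, and a probe that fails cannot be told apart from an absent transcript. NDUFS6 of complex I was likewise detected on no array. No fold change is given for the 6 restricted forms.

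Among the 10 tested subunits of complex IV, 7 had a log2 fold change above 0 and 3 below, with a median of 0.05. None had an unadjusted p under 0.05, where 14.5% of all genes did. COX6A1, whose promoter is printed above, came nearest. It had 11.27, 11.24 and 11.22 on the control arrays and 11.37, 11.48 and 11.41 on the arrays labelled induced, without overlap. The log2 fold change was 0.18 (SE 0.08), with a 95% interval from -0.0017 to 0.36 and an adjusted p of 0.349. COX4I1, which bears on the regulation of the enzyme by ATP, had 12.27, 12.32 and 12.33 against 12.33, 12.36 and 12.48, and the groups touched without overlap at 0.09 (SE 0.08). COX5B had 0.13 (SE 0.08), COX7A2 0.11 (SE 0.08) and COX6B1 -0.11 (SE 0.08), all with overlapping arrays. For all 10 subunits the 95% interval excluded a log2 fold change beyond 0.5 in either direction.

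Complex V, the ATP synthase, has a catalytic F1 head, a rotor with a ring of c subunits and a peripheral stalk. In the reported fit its 17 genes had the lowest median among the complexes with over 3 genes, 0.02, with 12 above 0 and 5 below. This order changed in some alternatives. With no filter complex IV lay lower, at 0.0017. Without replicate 3 of the arrays labelled induced complex III did, at 0.020 beside 0.031 for complex V. The 5 F1 subunits had a median of -0.07, the 3 c-ring genes 0.08, the 4 peripheral stalk genes 0.02 and the 5 small membrane subunits 0.03.

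ATP5F1E, encoded on chromosome 20, is the epsilon subunit of the F1 rotor stalk. Its log2 signal was 10.32, 10.26 and 10.19 on the control arrays and 10.62, 10.55 and 10.69 on the arrays labelled induced. The gap between the groups, from 10.32 to 10.55, was wider than the spread within either. The log2 fold change was 0.37 (SE 0.08), a 1.29-fold higher signal with a 95% interval from 0.17 to 0.56 and an adjusted p of 0.140. The adjusted p was under the threshold in 3 of 17 alternatives, at 0.00273 with trend and robust options, and ranged up to 0.343.

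ATP5F1D, the delta subunit that binds epsilon in the rotor stalk, had 9.18, 9.39 and 9.22 on the control arrays and 9.0, 9.09 and 9.15 on the arrays labelled induced. All of the latter lay below the former, at a log2 fold change of -0.18 (SE 0.09) and an adjusted p of 0.401, and a second probe gave -0.55 (SE 0.20). The remaining F1 subunits ATP5F1A, ATP5F1B and ATP5F1C had -0.07 (SE 0.08), -0.10 (SE 0.09) and 0.00 (SE 0.08), each with overlapping arrays. A second ATP5F1A probe gave -0.18 (SE 0.09), with all arrays labelled induced below all control arrays.

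ATP5MC1, ATP5MC2 and ATP5MC3 encode the same mature c subunit behind different targeting sequences. ATP5MC1 had 10.16, 10.22 and 10.13 on the control arrays and 10.37, 10.26 and 10.38 on the arrays labelled induced, without overlap, at 0.17 (SE 0.08) and an adjusted p of 0.390. ATP5MC2 had 0.05 (SE 0.10) and ATP5MC3 0.08 (SE 0.20), both with overlapping arrays. ATP5MK, a small subunit known for its part in dimers of the enzyme, had 4.81, 4.68 and 4.64 against 4.83, 4.83 and 5.16. It was detected on 1 control array and 2 of the others, so its log2 fold change of 0.23 (SE 0.11) was read close to the background.

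The symbol rule also took in genes that are not subunits. ATP5IF1, the inhibitor protein that blocks ATP hydrolysis by complex V, had 8.78, 8.68 and 8.71 on the control arrays and 8.84, 8.81 and 8.90 on the arrays labelled induced, at 0.13 (SE 0.08). The groups did not overlap, but the adjusted p was 0.485. COX7A2L, which joins respiratory complexes into supercomplexes, had -0.05 (SE 0.09), with overlapping arrays. NDUFB2-AS1, an antisense transcript, was not detected.

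The other 3 were copies of subunit genes, with a median of -0.11. UQCRHL, a gene nearly identical to UQCRH, had 12.48, 12.45 and 12.61 on the control arrays and 12.35, 12.19 and 12.33 on the arrays labelled induced, without overlap. Its log2 fold change of -0.22 (SE 0.09), with an adjusted p of 0.315, stands beside 0.07 (SE 0.07) for the UQCRH probe used and -0.07 (SE 0.13) for the second. UQCRBP1, a pseudogene of UQCRB, had -0.11 (SE 0.12), and ATP5F1EP2, a pseudogene of ATP5F1E, had 0.13 (SE 0.09). Transcripts so alike may bind the same probes, so the signals of UQCRH and UQCRHL, and of ATP5F1E and ATP5F1EP2, may not be separate measurements.

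For 20 of the genes several probes were detected and could be set side by side. In 12 of them all detected probes lay on the same side of 0, and in 8 they lay on both sides. The median gap between probes of a gene was 0.13 on the log2 scale. The widest gap, 0.49, belonged to UQCRB, whose brightest probe gave 0.07 (SE 0.09) and a dimmer one -0.42 (SE 0.08). The dimmest UQCRB probe gave -0.16 (SE 0.22). The probe at -0.42 read 5.73, 5.79 and 5.67 on the control arrays and 5.30, 5.30 and 5.34 on the arrays labelled induced. That was a clear separation, which the brightest probe did not show, with an adjusted p over all detected probes of 0.123. ATP5ME, a small membrane subunit, had 0.03 (SE 0.08) on the probe used and 0.34 (SE 0.13) on the other, while the probes of NDUFB6 gave 0.19 (SE 0.09) and 0.30 (SE 0.11). Which transcripts each probe binds was not examined.

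**Figure D4:**
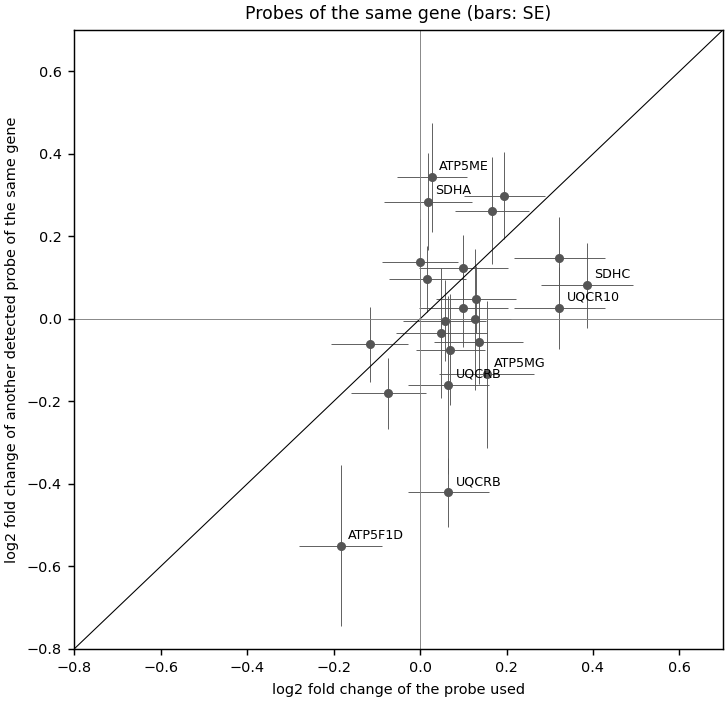
Log2 fold change of each further detected probe (vertical axis) against that of the brightest probe of the same gene (horizontal axis), arrays labelled NME2-induced minus control, with bars of 1 SE; the diagonal marks equal values. Probes of SDHC, UQCR10, UQCRB, ATP5F1D and ATP5MG lie well below the diagonal and those of SDHA and ATP5ME above it.

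Assembly factors build the complexes but are not part of them, and their symbols lie outside the rule. None of those listed passed the threshold for the adjusted p in the reported fit, while COA6 did in 3 of 17 alternatives (lowest adjusted p 0.00273) and UQCC2 in 1 (0.0122). The 16 complex I factors tested had a median of -0.01, with 6 above 0 and 10 below. ECSIT, which acts in the assembly of the membrane arm and also in immune signalling, had 5.51, 5.43 and 5.63 on the control arrays and 6.05, 5.94 and 5.94 on the arrays labelled induced. The groups lay well apart at 0.45 (SE 0.09) and an adjusted p of 0.107. NDUFAF2, an assembly factor related in sequence to NDUFA12, had 0.22 (SE 0.09) and TIMMDC1 -0.27 (SE 0.15).

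The complex IV factors, 24 of them tested, had a median of 0.05, with 14 above 0 and 10 below. At an unadjusted p under 0.05, 5 of 24 were higher and 1 lower, where 7.3% and 7.17% of all genes were. COA6, which takes part in copper delivery to the enzyme, had 8.37, 8.41 and 8.39 on the control arrays and 8.88, 8.71 and 8.95 on the arrays labelled induced. The control arrays were within 0.05 of each other, and the log2 fold change was 0.46 (SE 0.09), with an adjusted p of 0.107. COA4 had 0.45 (SE 0.13), SCO2, a copper chaperone, 0.30 (SE 0.09), COX14 0.33 (SE 0.10) and COA3 0.25 (SE 0.08), with adjusted p from 0.218 to 0.253, and CMC2 was the lower one at -0.22 (SE 0.08).

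For complex III, 7 genes outside the rule were tested, with a median of 0.10. UQCC3 had 0.14 (SE 0.08). LYRM7, a chaperone of the Rieske iron-sulfur protein, had 6.52, 6.71 and 6.53 on the control arrays and 6.13, 6.25 and 6.31 on the arrays labelled induced, at -0.36 (SE 0.09) and an adjusted p of 0.183. UQCC2, which aids the synthesis of cytochrome b, had 9.41, 9.64 and 9.53 against 9.79, 9.88 and 9.93, at 0.34 (SE 0.09) and an adjusted p of 0.186. Both were without overlap and opposite in direction. The 4 complex II factors and the 5 complex V factors had medians of 0.05 and -0.04. They held none at an unadjusted p under 0.05, where 14.5% of all genes lay. Their lowest fold changes were -0.16 for SDHAF4 and -0.24 for TMEM70, and their highest 0.11 for SDHAF1 and 0.10 for OXA1L, while SDHAF2 had 0.05 (SE 0.09) and ATPAF1 -0.08 (SE 0.10).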

How the data were processed

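RNA from 3 control and 3 NME2-induced A549 samples, grouped by their labels, was hybridised to Illumina Human HT-12 v4 arrays. The deposited intensities, each with its detection p-value, came from BeadStudio, named in the submitters' processing notes without version or settings. Both deposited tables held equal values. The intensities shared their minimum and maximum on all 6 arrays and went below 0, so the authors seem to have subtracted background and applied quantile normalization, although 1 table is described as not normalized. Differences in total brightness therefore could not be examined.

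The signals were processed with neqc of limma 3.58.1 in R 4.3.3, using the detection p-values, an offset of 16 and quantile normalization, which gave log2 signals in place of the deposited intensities. The offset understates fold changes of dim probes. Gene symbols came from the platform annotation. Probes with a detection p-value under 0.05 on at least 3 arrays were kept, and the brightest of them on average represented each gene. The test was lmFit and eBayes, 2-sided, with Benjamini-Hochberg adjustment over all 11358 genes and a threshold of 0.05, and its steps were tested on simulated data. Intervals are 95% intervals from the same fit, and errors are SD over 3 arrays or the moderated SE, with a median of 0.11 over all genes, which the number of arrays limits. Values of further probes come from the same fit over all detected probes. Fold changes compare 1 probe between groups, and no level of 1 probe is set against that of another.

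The genes, the lists of assembly factors, carriers, regulators and markers, and the tests were chosen with earlier results of these data known. Named were the 4 genes with the smallest p in each complex, the isoform groups of complex IV and the c subunit, and the 3 genes with the smallest p in each list. Genes with probes at an unadjusted p under 0.05 on both sides of 0 were also to be named, and there were none. NDUFA12, NDUFB6, UQCRHL, UQCRB, UQCRBP1 and ATP5F1EP2, like the further genes given with a fold change alone, were chosen after their values were seen. Alternatives were other background corrections and offsets, no second quantile step, no filter or a stricter one, the mean of probes, trend and robust options, the methods' t-test, a replicate block, leaving out each array, and the other deposited table. Same-numbered arrays did not deviate together (correlations of 0.03, -0.04 and -0.04), and the labels do not say that numbers mark pairs. The sources name no slides or scan dates.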

Additional observations from a re-analysis of the deposited data

How the results depend on the processing

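Of 170 alternative values of the counts and medians, 150 stayed close to the reported count or within 1 SD between arrays, and 20 moved further. Part of the 150 could not move. The other deposited table, which is among the 17 alternatives, held equal values. Trend and robust options, the methods' t-test and the block left every fold change, and so every median, as reported. Subunit genes past the adjusted threshold, 0 in each direction in the reported fit, were 1 higher (ATP5F1E) and 1 lower (NDUFV2) with normexp at an offset of 50, where 148 genes of all tested passed, and likewise with neqc at an offset of 50, where 123 did. They were 2 higher (ATP5F1E and SDHC) and 1 lower (NDUFV2) with trend and robust options, where 300 did. At an unadjusted p under 0.05, 10 genes were higher with normexp (13.3% beside 8.19% of all genes). Trend and robust options gave 11 higher (14.7% beside 8.61%). The methods' t-test gave 13 higher (17.3% beside 6.95%) and 2 lower (2.67% beside 6.89%), and none after Benjamini-Hochberg adjustment. With no filter, all 84 genes entered and the complex IV median was 0.00174. With the mean of probes the medians were 0.151 for complex II and 0.0355 for complex III.

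Leaving out each array in turn gave 4 to 8 genes higher and 1 to 4 lower at an unadjusted p under 0.05. These were 5.33% to 10.7% higher, where 5.55% to 7.17% of all genes were, and 1.33% to 5.33% lower, where 5.34% to 7.11% were. The count of 1 lower arose without control replicate 3 and without replicate 2 of the arrays labelled induced. The median over all genes described ran from 0.0373 to 0.0839, and those of complexes I to V from 0.0540 to 0.0953, -0.00659 to 0.0914, 0.0199 to 0.0944, 0.0353 to 0.0741 and 0.000594 to 0.0329. With the replicate number as a block, 0 and 0 genes passed, beside 5 of all genes tested. At an unadjusted p under 0.05, 4 were higher (5.33% beside 6.46% of all genes) and 3 lower (4% beside 6.27%). NDUFV2, ATP5F1E and SDHC had an unadjusted p under 0.05 in all 17 alternatives. The causes of these shifts were not tested. Over all genes tested, the calls ran from 5 with the block to 300 with trend and robust options, beside 28 reported. With 3 arrays per group the median SE of a single gene among those described was 0.09 on the log2 scale.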

Other observations

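Electron carriers and their makers connect the complexes. Of 13 such genes tested, 4 had a log2 fold change above 0 and 9 below, with a median of -0.01, and none passed the adjusted threshold. COQ2, which attaches the side chain in ubiquinone synthesis, had a log2 signal of 8.61, 8.64 and 8.82 on the control arrays and 8.49, 8.35 and 8.27 on the arrays labelled induced. The groups did not overlap, at a log2 fold change of -0.32 (SE 0.10) and an adjusted p of 0.230. ETFDH, which feeds electrons from fatty acid oxidation to ubiquinone, had -0.22 (SE 0.15), PDSS1, which makes the ubiquinone side chain, -0.13 (SE 0.09) and CYCS, cytochrome c itself, 0.05 (SE 0.08).

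Nuclear regulators of respiratory genes and the mitochondrial transcription machinery had 3 of 11 tested genes above 0 and 8 below, with a median of -0.05. None had an unadjusted p under 0.05, where 14.5% of all genes did. TFAM, which packages mitochondrial DNA and starts its transcription, had 9.97, 9.81 and 9.91 on the control arrays and 9.67, 9.88 and 9.65 on the arrays labelled induced. Its groups overlapped through replicate 2 of the latter, at -0.16 (SE 0.10). POLRMT, the mitochondrial RNA polymerase, had -0.16 (SE 0.11) and TEFM, an elongation factor, -0.11 (SE 0.08). GABPA and YY1, whose motifs were counted in the promoters, had -0.09 (SE 0.17) and -0.05 (SE 0.13), both with overlapping arrays. NRF1, whose motif was counted too, was detected on 1 array, and the listed regulators PPARGC1A and PPARGC1B on 0, so none of them was tested.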
